A study of Mus musculus with 21 samples.

Results

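The question here was whether the difference between conditional Tmem45b knockout and control dorsal root ganglia was the same after CFA as without it. For each gene the genotype difference in untreated ganglia (cKO minus flox) was subtracted from the genotype difference in CFA ganglia, on the log2 scale. This quantity is called the interaction below. A positive value means that the cKO level, relative to flox, stood higher in the CFA libraries than in the untreated ones. All 14 libraries of 1 deposited count table entered it, of 21 in the series, and 16605 of the table's 24524 genes passed the filter on low counts.

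Dorsal root ganglia hold the cell bodies of the sensory neurons that carry touch, heat, pain and itch from the body to the spinal cord. Mrgprd, a G protein-coupled receptor for beta-alanine, marks a large class of nonpeptidergic nociceptors that innervate the skin and take part in itch and mechanical pain. Tmem45b encodes a multipass transmembrane protein. Inflammation of the skin or a paw reaches the ganglion through the neurons' peripheral endings and through the circulation, so a ganglion can show neuronal, glial and immune responses to it. An interaction term is meant to isolate the part of that response that depends on genotype. In these libraries sex went with treatment (below), so the term cannot tell a dependence on CFA from one on sex.

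The mice were of 4 groups, and every group carried the floxed Tmem45b allele. Untreated flox (n = 3) and untreated cKO (n = 3) were libraries named LDRG, with no treatment in their labels. The CFA model contributed 4 libraries labelled flox and 4 labelled cKO. The labels leave CFA unexplained. The abbreviation usually stands for complete Freund's adjuvant, an oil emulsion injected to cause lasting inflammation. The cKO mice also carried Mrgprd-cre, so that deletion depends on Cre in Mrgprd-lineage cells and the other cells of the ganglion keep the gene. The flox mice carried no Cre according to the titles. Age is not given. The labels do not state whether each library is a different animal, so the p-values reflect only the spread between these samples, which may be technical. The other 7 libraries of the series, named con or ko (3 flox, 4 cKO, untreated), are in another table and serve below only to give single genes a genotype difference from other libraries. Their names carry further letters, F or M and C or L, which the labels do not explain; C or L is C, L and L in flox and C, C, C and L in cKO libraries.

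The libraries held 62.1 M to 72.5 M counts. Replicates of a group always differed by more than sampling noise, with chi-square per degree of freedom between 24.1 and 71.4 over 18 pairs. Neuronal markers were high in every library, the neurofilament gene Nefl at 4925 to 6805 CPM (counts scaled to the adjusted library size) and the sodium channel gene Scn10a at 1032 to 1396 CPM. Sex went with treatment. Xist, which is expressed from the inactive X chromosome, lay between 275 and 451 CPM in the 8 CFA libraries and at or under 0.321 CPM in the untreated ones, and Y-linked Ddx3y was at 0 in CFA and at 73.1 to 88.6 CPM in untreated libraries. CFA and sex therefore cannot be told apart. Blood markers also went with treatment among these 14 libraries. The 8 red blood cell genes summed to 290 to 694 CPM in CFA and 116 to 143 CPM in untreated libraries. In the untreated con/ko libraries the haemoglobin gene Hba-a2 was at 406 to 1073 CPM, beside 48.1 to 144 CPM in CFA libraries.

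Tmem45b itself, the deleted gene, was annotated on the minus strand of chromosome 9, 31426196 to 31464462 (build mm10). In untreated flox libraries 1 to 3 its level was 121, 128 and 141 CPM, and in untreated cKO libraries 66.1, 70.2 and 58.3 CPM. The labelled flox CFA libraries held 64.3, 112, 132 and 78.0 CPM, and their labelled cKO counterparts 105, 103, 65.7 and 60.6 CPM. The untreated genotypes did not overlap, while the CFA genotypes overlapped over most of their range. Of the 8 CFA libraries, 3 (labelled cKO 3 and 4, labelled flox 1) lay within the range of untreated cKO, 1 (labelled flox 3) within that of untreated flox, and 4 between the 2 ranges. The gene's level therefore did not separate the CFA libraries by their labels, and every direction below that involves CFA is a direction between labelled groups.

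The genotype difference of Tmem45b was -1.0 on the log2 scale without CFA and -0.21 with it. Its interaction of 0.79 (SE 0.34, 95% interval 0.07 to 1.52) had an unadjusted p of 0.0338 and an adjusted p of 0.942 by edgeR's quasi-likelihood test with Benjamini-Hochberg adjustment over all genes tested. Leaving out single libraries moved the estimate between 0.64, without labelled flox library 1, and 0.99, without labelled flox library 3. In the con/ko libraries, which played no part in the interaction, the gene differed by -1.02 (SE 0.10, adjusted p = 0.0123, edgeR), and by -0.86 (SE 0.08, adjusted p = 0.0287) with both letters of the library names as terms. Which exons are floxed is not in the labels, and reads from exons that remain still enter the total of a gene. Fewer cells of a type and less RNA per cell cannot be told apart in whole ganglia.

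Mrgprd, from which Cre is driven, was annotated on the plus strand of chromosome 7, 145314835 to 145324086. Its level was 134, 122 and 127 CPM in untreated flox and 143, 144 and 149 CPM in untreated cKO libraries. The labelled flox CFA libraries held 204, 158, 148 and 173 CPM, and the labelled cKO CFA libraries 109.6, 145, 149 and 165 CPM. All untreated cKO libraries lay above all untreated flox libraries, and the CFA groups overlapped, with labelled flox library 1 highest and labelled cKO library 1 lowest of the 14. The difference was 0.19 without CFA and -0.26 with it, an interaction of -0.45 (SE 0.17, unadjusted p = 0.0212, adjusted p = 0.942, edgeR). The con/ko libraries gave -0.25 (SE 0.22, adjusted p = 0.909, edgeR), a sign opposite to that of the untreated libraries used here, and -0.04 (SE 0.17) with the C or L letter as a term.

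**Figure D1:**
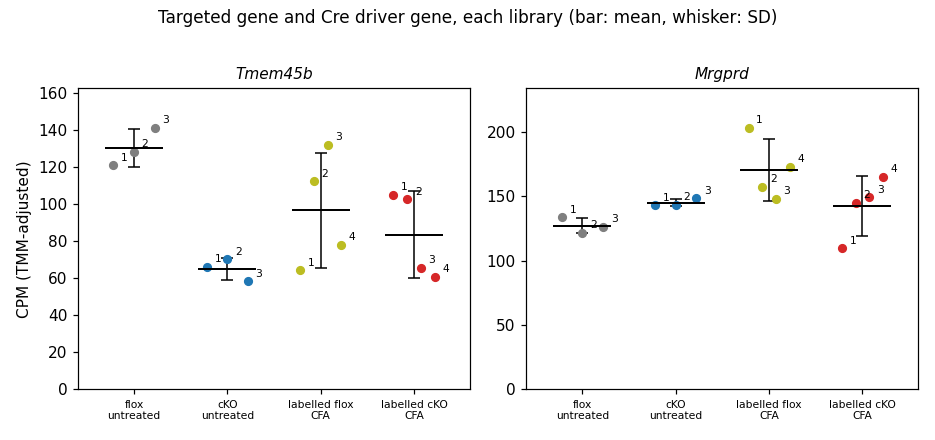
Levels of Tmem45b and Mrgprd in each library, in CPM adjusted by TMM (y axis, from 0), for untreated flox, untreated cKO, labelled flox CFA and labelled cKO CFA libraries. Points carry the replicate number, bars are means and whiskers are SD. Tmem45b separates the untreated genotypes (121 to 141 against 58.3 to 70.2 CPM) and not the labelled CFA groups (64.3 to 132 against 60.6 to 105 CPM).

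Across the transcriptome no gene had an interaction that passed the test. Of 16605 genes, edgeR called 0 (0%) at an adjusted p under 0.05, the smallest adjusted p being 0.637. Unadjusted p under 0.05 was reached by 840 genes, 445 higher (2.68% of those tested) and 395 lower (2.38%). DESeq2 on the same counts called 25, 9 higher and 16 lower, which is 0.151% of the genes to which it gave an adjusted p. Of those 25, 10 had a group in which every library stood at 0 counts. The interactions were centred near 0: their median over all genes was 0.00279, with quartiles of -0.11 and 0.12.

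How large an interaction could have been missed depended on the level of the gene. The 95% interval of the interaction lay wholly within 1 log2 unit of 0, that is within a 2-fold change of the genotype ratio, in 12609 genes (75.9%). Among 2348 genes averaging 100 CPM or more this held for 98.1%, with a median half-width of 0.20. Among 7635 genes at 10 to 100 CPM it held for 95% (half-width 0.26), and among 4015 at 1 to 10 CPM for 73.2% (0.53). Among 2607 genes under 1 CPM it held for 4.45%, the median half-width being 1.65. For well expressed genes a 2-fold interaction between the labelled groups was therefore outside the interval nearly throughout. At the lowest levels a difference of that size was not detectable. Tmem45b did not separate the CFA labels and CFA went with sex, so the intervals do not bound a dependence on CFA itself.

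**Figure D2:**
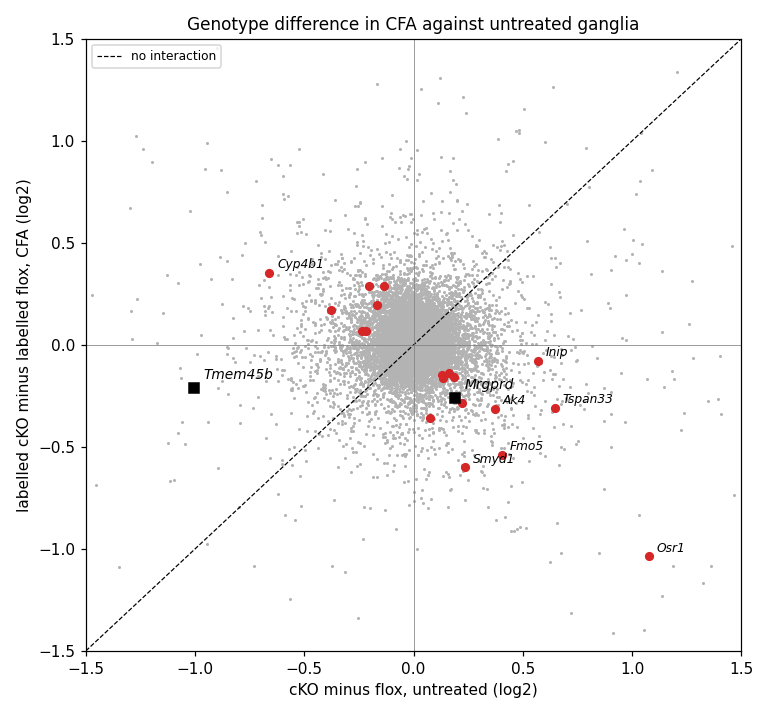
Genotype difference in CFA ganglia (labelled cKO minus labelled flox, log2, y axis) against that in untreated ganglia (cKO minus flox, log2, x axis) for 14173 genes averaging 1 CPM or more in some group; 80 more lie outside the axes. The dashed diagonal marks no interaction, black squares Tmem45b and Mrgprd, and red points the genes with the smallest unadjusted p (19 of 20 drawn); these lie in the upper left and lower right, where the 2 differences have opposite signs.

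Since no gene was called, the 20 genes of smallest unadjusted p that averaged 1 CPM or more in some group are described as values. They comprised 7 with a positive and 13 with a negative interaction, and in all 20 the genotype difference had opposite signs with and without CFA. The difference was the larger in CFA for 9 and in untreated ganglia for 11. Small interaction p selects such crossings, so these counts describe how the genes were chosen. DESeq2 called 14 of the 20, on the same counts that chose them, so this is no separate support.

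The gene with the smallest p was Ezh1, a histone methyltransferase of Polycomb repressive complexes (chromosome 11, 101191115 to 101226463, minus strand). It stood at 93.3, 85.4 and 86.0 CPM in untreated flox and at 96.6, 97.7 and 96.6 CPM in untreated cKO libraries. With CFA, the labelled flox libraries stood at 109, 103, 104 and 107 CPM and the labelled cKO libraries at 96.3, 93.9, 94.1 and 95.1 CPM. Neither pair of groups overlapped, and the order was reversed between them: the flox libraries were lower without CFA and higher with it, while the cKO libraries held nearly 1 level. The interaction was -0.30 (SE 0.06, unadjusted p = 0.000149, adjusted p = 0.637, edgeR).

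Osr1, a zinc finger transcription factor of mesenchymal and fibroblast progenitors (chromosome 12, 9570116 to 9581500, plus strand), was low throughout. Its level was 0.222, 0.307 and 0.125 CPM in untreated flox and 0.576, 0.359 and 0.450 CPM in untreated cKO libraries. The CFA libraries held 1.51, 1.2, 1.47 and 1.57 CPM when labelled flox and 0.869, 0.753, 0.506 and 0.669 CPM when labelled cKO. Both pairs of groups separated fully, in opposite directions. The interaction of -2.11 (SE 0.42, unadjusted p = 0.000216, adjusted p = 0.637, edgeR) was the most negative of the 20 among genes with counts in every group.

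Trib2, a pseudokinase of the Tribbles family (chromosome 12, 15791727 to 15816922, minus strand), showed the reverse order. It was at 228, 227 and 203 CPM in untreated flox and 197, 193 and 196 CPM in untreated cKO libraries. With CFA, labelled flox libraries were at 159, 182, 176 and 176 CPM and labelled cKO libraries at 190.4, 194, 207 and 203 CPM. The cKO libraries again kept close to 1 level across treatments, and the flox libraries lay above the cKO libraries of the same treatment without CFA and below them with it. The interaction was 0.36 (SE 0.08, unadjusted p = 0.000397, adjusted p = 0.637, edgeR).

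Tspan12, a tetraspanin that assists Norrin signalling through Frizzled receptors (chromosome 6, 21771395 to 21852515, minus strand), had a like pattern. Levels were 46.7, 49.2 and 48.5 CPM in untreated flox against 41.1, 42.1 and 42.3 CPM in untreated cKO, and 42.4, 40.7, 36.9 and 47.3 CPM in labelled flox against 47.9, 50.5, 48.7 and 57.3 CPM in labelled cKO CFA libraries. Neither pair overlapped, although labelled flox library 4 came within 1 CPM of the lowest labelled cKO library. The interaction was 0.49 (SE 0.11, unadjusted p = 0.000716, adjusted p = 0.675, edgeR).

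In Timeless, Inip and Lss the spread of the genotypes sat mainly in 1 of the treatments. Timeless, a protein of the replication fork, was at 48.9, 44.5 and 42.3 CPM in untreated flox and 35.9, 33.8 and 34.8 CPM in untreated cKO, a full separation. With CFA it was at 26.6, 32.0, 33.1 and 27.5 CPM (labelled flox) and 32.3, 35.5, 32.6 and 33.7 CPM (labelled cKO), which overlapped; the interaction was 0.55 (SE 0.11). Inip, a subunit of a single-strand DNA-binding complex of DNA repair, was at 19.1, 17.0 and 19.4 CPM in untreated flox and 27.1, 28.0 and 27.4 CPM in untreated cKO libraries. The CFA libraries labelled cKO held 17.8 to 20.6 CPM and those labelled flox 18.1 to 24.9 CPM, so only the untreated genotypes separated, and the interaction was -0.65 (SE 0.15). Lss, lanosterol synthase of cholesterol synthesis, was the opposite case. Its untreated groups overlapped at 80.7 to 83.9 CPM (flox) and 81.8 to 92.3 CPM (cKO), while labelled flox CFA libraries at 80.2 to 93.6 CPM lay above labelled cKO CFA libraries at 61.9 to 72.4 CPM. Its interaction was -0.44 (SE 0.09).

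Signalling genes among the 20 had small differences measured with small errors. Rap1b, a Ras-family GTPase, had an interaction of 0.42 (SE 0.09): the labelled cKO CFA libraries at 209.8 to 256 CPM lay above the labelled flox ones at 180.1 to 198 CPM, and the untreated groups overlapped. S1pr3, a receptor for sphingosine phosphate on sensory neurons, had 0.31 (SE 0.07), with untreated flox at 199 to 214 CPM above untreated cKO at 173 to 183 CPM and overlapping CFA groups. Adcyap1, which encodes the neuropeptide PACAP, had 0.29 (SE 0.06). It was at 132 to 142 CPM in untreated flox and 114 to 126 CPM in untreated cKO, and its CFA groups overlapped at 92.8 to 102 CPM. Plcd4, a phospholipase C, had -0.28 (SE 0.06), and Phka1, a regulatory subunit of phosphorylase kinase, -0.30 (SE 0.07). Myo1d, an unconventional myosin, had -0.34 (SE 0.07).

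The remaining genes of the 20 were expressed at lower levels. Pnpla3, a lipid droplet lipase, had an interaction of -0.51 (SE 0.11), with 12.2 to 14.2 CPM in untreated flox against 14.9 to 15.8 CPM in untreated cKO and 14 to 16.7 CPM against 11.9 to 13.2 CPM in CFA. Both of its pairs separated fully. Metabolic enzymes included Ak4, a mitochondrial adenylate kinase (-0.69, SE 0.16), Fmo5, a flavin monooxygenase (-0.94, SE 0.23), and Cyp4b1, a haem monooxygenase (1.01, SE 0.24). Fmo5 stood at 15.6, 15.7, 14.3 and 9.30 CPM in libraries labelled flox with CFA, so that library 4 of that group fell within the 9.08 to 9.74 CPM of those labelled cKO. Tspan33, a tetraspanin, had -0.95 (SE 0.21) and Smyd1, a methyltransferase of striated muscle, -0.84 (SE 0.19).

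Cxcr2, the chemokine receptor of neutrophils, had no count in the 3 untreated flox libraries and 14 counts in all in untreated cKO. With the 3 flox libraries together set to 3 counts, untreated cKO was at least 4.93-fold higher. In CFA it was at 0.754 to 1.78 CPM in labelled flox and 0.618 to 1.52 CPM in labelled cKO libraries, which overlapped. The interaction was therefore -2.88 or lower at that floor. The 14 counts set the whole of the untreated difference.

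**Figure D3:**
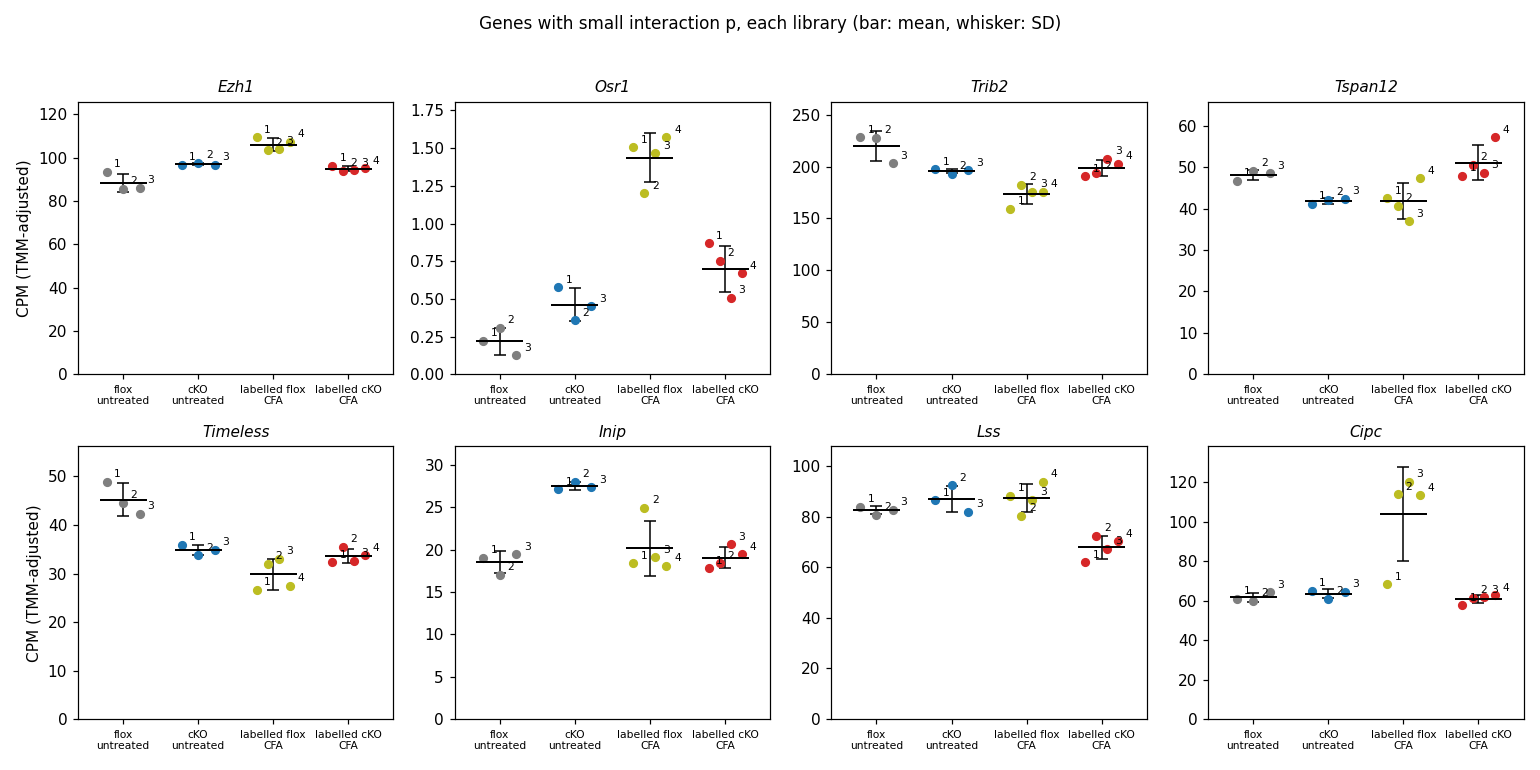
Levels in each library, in CPM adjusted by TMM (y axes, from 0), of Ezh1, Osr1, Trib2, Tspan12, Timeless, Inip and Lss, which are among the 20 genes of smallest interaction p, and of the clock gene Cipc. Points carry the replicate number, bars are means and whiskers SD over the libraries of each group. In the upper row the order of flox and cKO is reversed between untreated and CFA libraries without overlap; in Cipc, labelled flox CFA library 1 (68.3 CPM) stands apart from the other libraries of its group (113 to 120.2 CPM).

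The con/ko libraries gave a genotype difference in other untreated ganglia for each of these 20 genes. It had the sign of the untreated difference used in the interaction in 7 of 20, beside 52.8% of all 14204 genes at a mean of 1 CPM or more. By edgeR 0 of the 20 were called there, where 40 genes (0.243%) were called in all, and 1 had an unadjusted p under 0.05, beside 6.6% of all genes. That gene was Smyd1, at -0.77 (SE 0.19), against 0.24 in the untreated libraries of the interaction. In the con/ko libraries the 14 skeletal muscle genes summed to 516 to 988 CPM in flox and 6.42 to 17.2 CPM in cKO, without overlap, and their part in the Smyd1 difference was not tested. For Ezh1 the con/ko difference was -0.05 (SE 0.06) against 0.14, for Trib2 -0.06 (SE 0.08) against -0.17, and for Timeless -0.02 (SE 0.08) against -0.38. For Lss it was -0.35 (SE 0.16) against 0.08. For Inip the sign was shared, 0.30 (SE 0.23) against 0.57.

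The con/ko libraries also split by the letters of their names, which the fit above does not hold. Ltf was at 17.6 to 34.4 CPM in the 4 libraries with C and 80.9 to 438 CPM in the 3 with L, and Mobp, a myelin gene of oligodendrocytes, at 26.9 to 78.2 CPM and 1.29 to 2.95 CPM. With the C or L letter as a term, a fit chosen after seeing the data, 6 of the 20 shared the sign, 0 were called and 1 had an unadjusted p under 0.05. With both letters as terms 8 shared the sign, 0 were called and 3 had such a p (edgeR). Of these 3, Inip at 0.72 (SE 0.10, adjusted p = 0.0922, edgeR) had the sign of the untreated difference. Smyd1 at -0.68 (SE 0.22) and Lss at -0.28 (SE 0.11) had the opposite sign. Timeless had 0.05 (SE 0.07) with the C or L letter as a term, in place of -0.02, and Lss -0.19 (SE 0.12), Trib2 -0.12 (SE 0.07) and Inip 0.48 (SE 0.22).

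A stricter pattern was also counted: all cKO libraries on 1 side of all flox libraries without CFA, and on the other side with CFA. It was met by 15 genes with a positive interaction (0.0903% of those tested) and 27 with a negative one (0.163%), and 41 of these 42 had an unadjusted p under 0.05. DESeq2 called 8 of them. The separation and both tests use the same counts, so the 41 and the 8 describe how the genes were chosen. Besides Trib2 and Tspan12, the 5 of smallest p in the positive direction included Nova1, a neuronal splicing regulator (0.60, SE 0.15), Alkal2, a ligand of the receptor tyrosine kinase ALK (0.92, SE 0.23), and the growth factor gene Tgfb2 (0.43, SE 0.11). Alkal2 was at 9.57, 7.20 and 7.72 CPM in untreated flox and 5.61, 5.23 and 5.68 CPM in untreated cKO, and in CFA at 2.90, 4.65, 5.07 and 4.81 CPM (labelled flox) and 5.39, 5.68, 5.70 and 5.43 CPM (labelled cKO). The 7 cKO libraries lay between 5.23 and 5.70 CPM over both treatments, with the flox libraries above that band without CFA and below it with CFA. In the negative direction were Ezh1, Osr1, Myo1d, Pnpla3 and Chrne, the adult muscle acetylcholine receptor subunit, which had 0 counts in untreated flox, 35 in untreated cKO, 41 in labelled flox and 4 in labelled cKO CFA libraries.

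Gene groups were examined through 30 lists, each described by counts and its median interaction, beside the 2.68% higher and 2.38% lower at unadjusted p under 0.05 and the median of 0.00279 over all genes. No member of any list passed the adjusted test. For 18 of the 30 lists the median lay within 0.1 of 0. Farthest from 0 were nerve injury, feedback inhibitors of ERK signalling, interferon response, cytokines and peptidergic nociceptors on the positive side, and blood and muscle lists on the negative side.

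Sensory neuron classes came first, since Cre acts in 1 of them. Of 11 markers of Mrgprd-type neurons, 0 had a higher and 1 a lower interaction at unadjusted p under 0.05, Mrgprd itself, and the median was -0.07. The lower count was 0 without untreated flox library 2 and 3 without untreated flox library 3. Next were the signalling ligand gene Wnt2b (-0.32, SE 0.15) and Agtr1a, a receptor for angiotensin (-0.27, SE 0.14). The summed level of the list was 2760 to 3201 CPM in untreated flox, 2732 to 2784 in untreated cKO, 2927 to 3232 in labelled flox CFA and 2585 to 2870 in labelled cKO CFA libraries, so that the CFA groups did not overlap and the untreated ones did. C-low-threshold mechanoreceptor genes, which mark touch-sensitive unmyelinated neurons, had a median of 0.05 with 0 of 6 members at that p. Large A-fibre neuron genes had 0 of 14 and a median of 0.07. Of these A-fibre genes, 1 was higher without labelled flox library 1 or 2, and 1 higher and 1 lower without untreated flox library 3.

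Peptidergic nociceptor genes, expressed in neurons that release neuropeptides, had 3 of 10 members higher and 0 lower, with a median of 0.21. The count was 1 without untreated flox library 1 or 2 and 5 without labelled flox library 3. Calca, which encodes calcitonin gene-related peptide, was at 1590.1, 1652 and 1418 CPM in untreated flox and 1362, 1411 and 1288 CPM in untreated cKO. The labelled flox CFA libraries held 877, 1161, 1166 and 1094 CPM, and the labelled cKO ones 1224, 1122, 1195 and 1094 CPM. The untreated groups separated narrowly (1418 against 1411 CPM at the nearest) and the CFA groups overlapped, and the interaction was 0.31 (SE 0.13). In the untreated con/ko libraries Calca overlapped, at 912 to 1119 CPM in flox and 1005 to 1283 CPM in cKO. The prostacyclin receptor gene Ptgir had 0.35 (SE 0.14) and Adcyap1, described above, 0.29.

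Of 25 tested itch receptors and their signalling genes, 0 reached an unadjusted p under 0.05, the median was 0.02, and 14 of the 25 values lay above 0. Without labelled cKO library 4, 3 were lower, and without labelled cKO library 1, 2 were higher. The nearest were the sphingosine phosphate receptor gene S1pr1 (0.37, SE 0.19) and Osmr, a subunit of the oncostatin M and interleukin receptors of itch (-0.29, SE 0.16). Osmr was at 53.6, 60.6 and 56.2 CPM in labelled cKO CFA libraries 1 to 3 and at 80.7 CPM in library 4, against 69.9 to 73.7 CPM in those labelled flox.

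Endoplasmic reticulum calcium genes, to which the series' title points, had 4 members higher and 1 lower of 33 tested, and a median of -0.02. The count of 4 was 2 without untreated cKO library 1 or 3 or untreated flox library 3, and 2 were lower without labelled flox library 2 or 3. The lower member was Stim1, the sensor of reticulum calcium that opens store-operated channels. It stood at 61.0, 57.9 and 63.3 CPM in untreated flox and 66.4, 64.6 and 66.9 CPM in untreated cKO libraries. With CFA, labelled flox libraries held 63.7, 64.5, 70.4 and 65.2 CPM and labelled cKO libraries 62.3, 63.9, 63.2 and 57.3 CPM. The untreated groups separated and the CFA groups overlapped by 1 pair, labelled cKO 2 above labelled flox 1, and the interaction was -0.22 (SE 0.07, unadjusted p = 0.0121, edgeR).

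The higher members included 2 chaperones, Canx (calnexin; 0.16, SE 0.06) and Hspa5 (the chaperone BiP; 0.15, SE 0.06), and Tmco1, a calcium leak channel of the reticulum (0.24, SE 0.10). Hspa5 was at 350.3, 336 and 349 CPM in untreated flox and 332, 323 and 319 CPM in untreated cKO, which separated, and its CFA groups overlapped at 359 to 380.3 CPM and 363 to 406 CPM. The unfolded protein response, which raises such chaperones under load, had 1 member higher and 1 lower of 19 and a median of 0.03. Without labelled flox library 3 these counts were 2 and 2, and without untreated flox library 3, 2 were lower. With all libraries the 2 members were Sdf2l1, a cofactor of BiP (0.42, SE 0.14), and Ern1, the stress sensor IRE1 (-0.33, SE 0.12). Labelled flox library 1 was highest of the 14 for Ern1, at 21.9 CPM beside 14.8 to 18.3 CPM in the rest.

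Cytosolic heat shock genes, which code for chaperones outside the reticulum, had 4 of 12 members higher, 0 lower and a median of 0.12. The count was 2 without untreated flox library 2. Dnaja1, an Hsp40-type co-chaperone, stood at 276, 304 and 273 CPM in untreated flox and 242, 292 and 251 CPM in untreated cKO. In CFA it stood at 218, 214, 235 and 262 CPM in labelled flox and 288, 285, 293 and 329 CPM in labelled cKO libraries. The CFA groups separated and the untreated groups overlapped. Its interaction was 0.48 (SE 0.12, unadjusted p = 0.00124, edgeR), followed by the Hsp90 cofactor gene Chordc1 (0.38, SE 0.13), Hsp90aa1 (0.25, SE 0.10) and Hsph1 (0.18, SE 0.08).

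Ion channel lists had medians near 0. Sodium channels had 0 of 12 members at unadjusted p under 0.05 and TRP channels 0 of 13, with medians of -0.07 and -0.03. With single libraries left out, 0 to 1 sodium channels and 0 to 2 TRP channels were lower, the 2 without untreated cKO library 2, and 1 TRP channel was higher without labelled cKO library 1. The cold receptor gene Trpm8 had -0.64 (SE 0.31), labelled flox library 1 being highest at 73.9 CPM and the other 13 libraries lying between 25.8 and 48.9 CPM. Potassium channels had 1 of 22, Kcnt1, a sodium-activated channel (-0.18, SE 0.08), a count of 0 to 2 with single libraries left out (2 without labelled cKO library 3). Voltage-gated calcium channel genes had 2 of 14 lower, Cacna2d2 (-0.27, SE 0.08) and Cacna1c (-0.23, SE 0.10), with a median of -0.06. The count of 2 was 4 without labelled cKO library 2 or labelled flox library 3, and 1 without any of 6 other libraries. Cacna2d2 was at 42.9 to 46.0 CPM in labelled flox and 36.0 to 40.3 CPM in labelled cKO CFA libraries, a full separation, and overlapped at 45.6 to 51.1 CPM in the untreated ones.

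Nerve injury genes, which axotomised sensory neurons induce for regrowth, had a positive median. Of 14 members 6 were higher at unadjusted p under 0.05, 0 lower, and 12 lay above 0, the median being 0.40. Atf3, a transcription factor switched on by axon damage, was at 16.5, 27.8 and 48.1 CPM in untreated flox and 11.2, 12.7 and 23.0 CPM in untreated cKO libraries. Among CFA libraries it was at 7.63, 6.77, 8.20 and 6.11 CPM with the flox label and 8.56, 9.22, 8.31 and 11.6 CPM with the cKO label. The untreated flox libraries were widely spread and overlapped cKO. The CFA groups were low and narrowly separate, at 8.20 CPM or less against 8.31 CPM or more. In the untreated con/ko libraries Atf3 was at 5.47 to 9.84 CPM in flox and 7.32 to 17.5 CPM in cKO, which overlapped. The interaction was 1.37 (SE 0.44, unadjusted p = 0.00784, edgeR).

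Sox11, a transcription factor of axon growth, followed the same order. It was at 20.7, 26.8 and 28.1 CPM in untreated flox, 16.5, 18.8 and 17.8 CPM in untreated cKO, 14.1, 12.4, 14.4 and 13.0 CPM in labelled flox and 12.2, 15.2, 15.5 and 18.3 CPM in labelled cKO CFA libraries. Its untreated groups separated and its CFA groups overlapped, giving an interaction of 0.70 (SE 0.18, unadjusted p = 0.0022, edgeR). The transcription factor gene Jun had 0.41 (SE 0.13), and the endopeptidase gene Ecel1, induced by nerve damage, 1.92 (SE 0.61). Ecel1 was at 12 CPM in untreated flox library 3 and at 4.21 CPM or less in the other 13. Without that library 4 members of the list had an unadjusted p under 0.05, and the median was 0.21 in place of 0.40. Higher members numbered 9 without untreated flox library 1, and 1 member was lower without untreated flox library 2.

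Feedback inhibitors and targets of ERK signalling, the kinase pathway downstream of growth factor receptors, had 5 of 11 members higher and 1 lower, with a median of 0.34 and 10 values above 0. Spry4, a Sprouty inhibitor, was at 54.4, 52.3 and 38.0 CPM in untreated flox and 40.9, 36.0 and 38.5 CPM in untreated cKO. The CFA libraries held 27.7, 34.4, 33.2 and 36.2 CPM (labelled flox) and 35.0, 43.6, 46.5 and 44.1 CPM (labelled cKO). Each pair of groups overlapped by 1 or 2 libraries, and the interaction was 0.69 (SE 0.18, unadjusted p = 0.00235, edgeR). The transcription factor gene Etv5, a target of the pathway, had 0.49 (SE 0.15) and Spred1, another inhibitor, 0.43 (SE 0.17). Spry1 was the exception, at -0.62 (SE 0.25) and 2.82 CPM or less. The count of 5 was 2 without untreated flox library 2, and 3 without untreated flox library 3, untreated cKO library 1 or 2, or labelled flox library 1. Immediate early genes, a faster readout of neuronal activity, had 0 of 16 higher and 1 lower, Npas4 (-1.18, SE 0.54), which stayed under 1 CPM. Without untreated flox library 1, 3 were higher, and the lower count was 0 in 10 of the 14 fits that left out 1 library.

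Interferon response genes, induced by type I and II interferons in any cell of the ganglion, had 7 of 31 members higher and 0 lower, with 27 values above 0 and a median of 0.47. Mx1, an antiviral GTPase, was at 4.11, 8.93 and 1.52 CPM in untreated flox and 1.17, 4.07 and 3.31 CPM in untreated cKO. With CFA it was at 1.52, 0.782, 1.33 and 1.4 CPM in labelled flox and 7.14, 1.42, 1.88 and 8.49 CPM in labelled cKO libraries. Untreated flox library 2 and labelled cKO libraries 1 and 4 were high, and both pairs of groups overlapped. The interaction was 2.68 (SE 0.95, unadjusted p = 0.0147, edgeR).

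Ifi44 was at 14.6, 12.3 and 6.41 CPM in untreated flox and 4.68, 11.5 and 7.23 CPM in untreated cKO, and in CFA at 3.74 to 5.99 CPM in labelled flox and 5.59 to 10.1 CPM in labelled cKO libraries, an interaction of 1.12 (SE 0.45). Oas3 and Oas2, which make the activator of RNase L, had 2.30 (SE 0.80) and 0.89 (SE 0.34). The interferon-induced chemokine gene Cxcl10 had 1.94 (SE 0.74) and was the 1 cytokine of 11 tested that reached an unadjusted p under 0.05, the list's median being 0.48. That count was 0 without untreated flox library 2 and 3 without untreated cKO library 2, and 2 cytokines were lower without untreated flox library 1. Cxcl10 was at 15.3 CPM in untreated flox library 2, at 12.7 and 12.1 CPM in labelled cKO libraries 1 and 4, and at 7.62 CPM or less in the other 11.

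The interferon count changed with single libraries. It was 0 without untreated flox library 2, 2 without untreated cKO library 1, and 3 without untreated cKO library 3, labelled flox library 1 or labelled cKO library 4. It was 4 without labelled flox library 2, 12 without untreated flox library 3 and 16 without untreated cKO library 2. The median stayed above 0 when each library was left out, from 0.29 to 0.64. The summed level of the 31 genes varied widely within groups, from 956 to 1441 CPM in untreated flox, 911 to 1454 in untreated cKO, 707 to 991 in labelled flox and 815 to 1110 CPM in labelled cKO CFA libraries. What sets that level within a group was not tested.

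**Figure D4:**
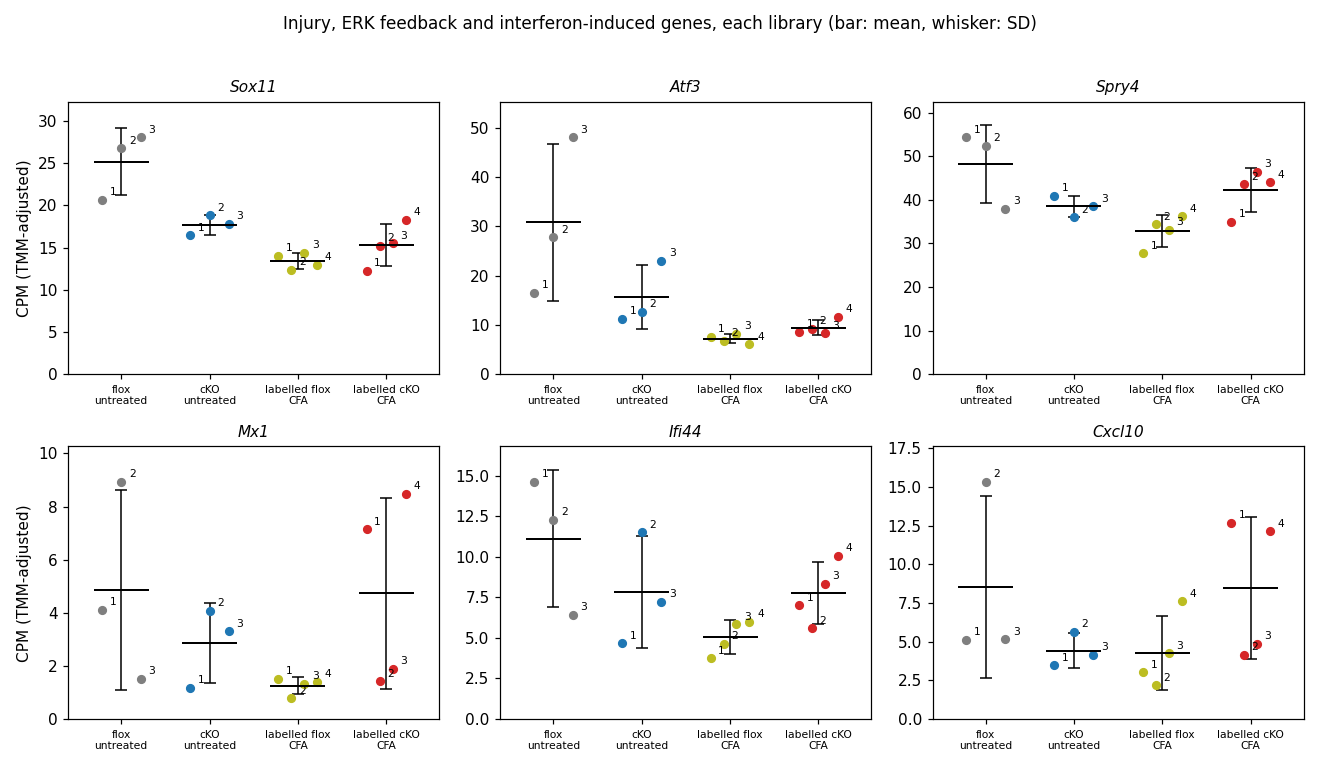
Levels in each library, in CPM adjusted by TMM (y axes, from 0), of nerve injury genes (Sox11, Atf3), the ERK feedback gene Spry4, interferon-induced genes (Mx1, Ifi44) and the chemokine gene Cxcl10. Points carry the replicate number, bars are means and whiskers SD. Untreated flox libraries spread widely (Atf3 16.5 to 48.1 CPM, Mx1 1.52 to 8.93 CPM), and labelled cKO CFA libraries 1 and 4 stand high for Mx1 and Cxcl10.

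Neutrophil markers were near 0 in the untreated LDRG libraries and well above it in the CFA libraries. In the untreated con/ko libraries Ltf was at 17.6 to 438 CPM, beside 6.18 to 22.4 CPM in CFA libraries. The 12 neutrophil genes summed to 2.91 to 5.08 CPM in untreated flox, 2.58 to 6.86 CPM in untreated cKO, 45.1 to 144 CPM in labelled flox and 53.1 to 147 CPM in labelled cKO CFA libraries, so the genotypes overlapped in both treatments. Cxcr2, Ltf and Ly6g were at 0 in untreated flox and Elane, Retnlg and Ly6g in untreated cKO. The list's median interaction was -0.65, with 2 members lower (1 without untreated cKO library 1). Its median genotype difference was -0.34 between the labelled CFA groups and 0.21 between the untreated groups, whose levels were near 0. Ltf, the granule protein lactoferrin, had 78 counts in untreated cKO, all in library 1 (1.10 CPM), and 0 in untreated flox.

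All 8 red blood cell genes tested had an interaction at or below 0, with a median of -0.81. At unadjusted p under 0.05, 1 was lower with all libraries. The count was 7 without labelled flox library 2, 5 without labelled cKO library 1 and 3 without untreated flox library 1. It was 1 without any other library. The haemoglobin gene Hba-a2 had -0.81 (SE 0.45). The list summed to 290 to 694 CPM in labelled flox and 291 to 527 CPM in labelled cKO CFA libraries, and the part of blood in other results was not tested. Macrophage genes had 0 of 14 members at that p (0 to 1 with single libraries left out) and a median of -0.01, with sums of 80.7 to 92.6 CPM in untreated flox, 78.0 to 93.1 in untreated cKO, 112 to 138 in labelled flox and 104 to 132 CPM in labelled cKO CFA libraries. Lymphocyte genes had 1 of 10, Cd3e (-1.07, SE 0.46; 0 without any of 6 libraries), and summed to 7.09 CPM or less in every library.

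Skeletal muscle genes, a sign of tissue carried over at dissection, followed single libraries. Their sum was 643 CPM in untreated cKO library 1 and 5.83 and 5.89 CPM in the other untreated cKO libraries, 52.5 to 178 CPM in untreated flox, 107 CPM in labelled flox library 1 and 24.7 CPM or less in the other 7 CFA libraries. The median interaction of -2.66 over 14 genes, 0 of them at unadjusted p under 0.05, turned to 3.20 without untreated cKO library 1 and to 0.78 without labelled flox library 1. Among genes named above, Smyd1 and Chrne are muscle genes. Smyd1 had -0.75 without untreated cKO library 1, in place of -0.84. For Chrne the 35 untreated cKO counts were spread over all 3 of its libraries, at 0.239, 0.179 and 0.0803 CPM.

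Glial, vascular and other support cell lists had no member at unadjusted p under 0.05. This held for 15 myelinating Schwann cell genes (median 0.07), 9 satellite glia genes (0.11), 5 spinal cord glia genes (-0.02) and 13 vessel and connective tissue genes (0.19). Without untreated flox library 1, 3 satellite glia genes, 2 vessel and connective tissue genes and 1 Schwann cell gene were higher. Spinal cord glia genes summed to 20.5 to 33.0 CPM in the 14 libraries, and Mog, Olig1, Olig2 and Opalin did not pass the filter on low counts. Glucocorticoid-responsive genes, a sign of systemic stress, had 0 of 9 and a median of 0.07.

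Cholesterol synthesis had 1 of 20 members lower, Lss, and a median of -0.04. The count was 4 without labelled flox library 1 and 2 without labelled flox library 2 or labelled cKO library 4. Circadian clock genes had 2 of 16 lower (1 without untreated cKO or flox library 2) and a median of -0.02. Arntl, the core activator BMAL1, had -0.60 (SE 0.23). Cipc, which binds and inhibits CLOCK, was at 61.0, 59.9 and 64.2 CPM in untreated flox, 65.1, 60.9 and 64.6 CPM in untreated cKO and 57.6, 61.4, 61.8 and 62.7 CPM in labelled cKO CFA libraries. In labelled flox CFA libraries it was at 68.3, 114, 120.2 and 113 CPM, so that 3 libraries stood apart from the other 11. The untreated con/ko libraries held 55.2, 58.7 and 105.6 CPM in flox and 60.4, 23.9, 114 and 52.1 CPM in cKO. Levels of that height therefore also occurred without CFA and in both genotypes. The interaction was -0.82 (SE 0.20, unadjusted p = 0.0012, adjusted p = 0.789, edgeR), and without labelled flox library 1 it was -0.97 with an adjusted p of 7.24e-05.

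Genes near the targeted loci showed no common shift. Within 5 Mb of Tmem45b 1 gene was higher and 1 lower of 37 tested, with a median of -0.04. Within 5 Mb of Mrgprd 3 were higher and 1 lower of 94, with a median of -0.05.

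**Figure D5:**
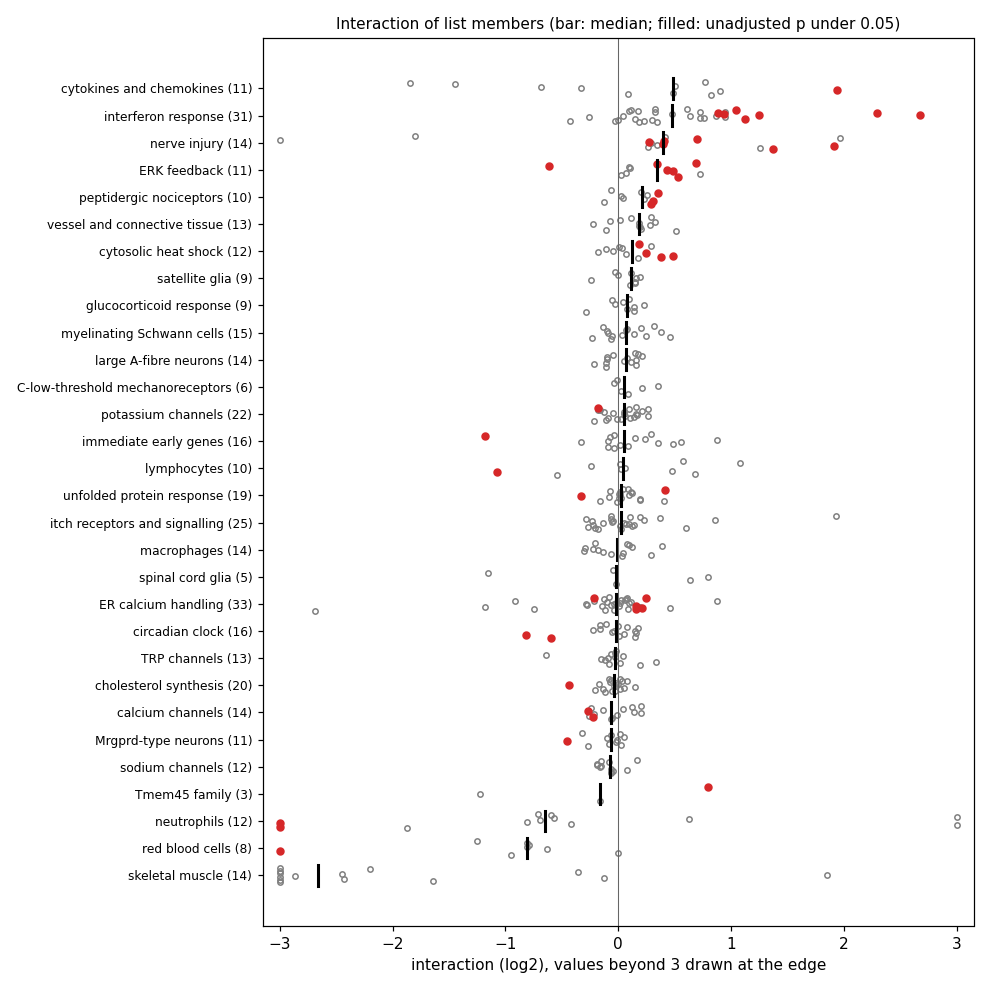
Interaction (log2, x axis, values beyond 3 drawn at the edge) of every tested member of the 30 gene lists (y axis, number of members in brackets). Black bars are medians, filled red points have an unadjusted p under 0.05, and open points do not, and 12 points lie at the edges. Most lists are centred near 0, with nerve injury (median 0.40), ERK feedback (0.34) and interferon response (0.47) to the right and red blood cells (-0.81) and skeletal muscle (-2.66) to the left.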

How the data were processed

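RNA with poly-A tails was captured from mouse dorsal root ganglia and sequenced on a BGI T7 instrument in paired reads of 150 bases, per the labels' protocols. For the authors' steps the submitters' processing notes name fastp 0.23.2, BWA 2.2.1, SAMtools 1.14, DESeq2 1.40.2 and build mm10, without roles or order. How reads were assigned to genes is not stated in the sources used here. Each deposited value is a count of reads for 1 gene in 1 library, not normalized. Genotypes come from titles, since the genotype characteristic names the Cre line in every sample.

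In R 4.3.3, edgeR 4.0.16 (filterByExpr with minimum count 10 and total 15, TMM, quasi-likelihood F test) fitted 4 group means over 14 libraries, with Benjamini-Hochberg adjustment over 16605 genes and calls at adjusted p under 0.05. The same steps were tested on simulated data. CPM values use TMM-adjusted library sizes; a fold against a group at 0 uses a floor of 3 counts over that group. The con/ko table was fitted alone, and again with the letters of its library names as terms, a fit chosen after seeing the data. A planned permutation of genotype labels within treatments is not reported, since it tests for no genotype difference in either treatment and not for the interaction. Positions are from GENCODE vM21 (96.2% of symbols matched). DESeq2 1.42.0, other filters and scaling, a replicate block, a muscle covariate, a shared spread and leaving out each library were alternatives.

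Named genes are Tmem45b, Mrgprd, the 20 genes of smallest p averaging 1 CPM or more in some group (no gene was called), up to 4 members per list by p, and the 5 separated genes of smallest p each way, without Xist, Tsix and Y-linked genes. Markers of sex, neurons, blood and muscle and genes lost or gained with 1 library were picked once their values had been seen. The gene lists and comparisons were chosen with earlier results of these data known.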

Additional observations from a re-analysis of the deposited data

Results flagged for a closer look

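In groups of 4 CFA libraries, a library was singled out when its gap to the nearest of the others exceeded Dixon's 95% critical value of the group's range. This occurred in 11 of 164 groups examined (82 genes), where chance alone gives about 1 in 20 groups. Among libraries labelled flox these were Cipc in library 1 (68.3 CPM), Ern1 in library 1 (21.9 CPM), Inip in library 2 (24.9 CPM), Kcnt1 in library 2 (250.1 CPM) and Tmco1 in library 3 (50.3 CPM). Cipc was low in its library and the others were high in theirs. Among libraries labelled cKO these were Kcnt1 (190.4 CPM) and Phka1 (50.0 CPM), both low in library 1. Library 4 of that group was high for Ecel1 (1.37 CPM), Wnt2b (21 CPM), Scn4b (539.9 CPM) and Chrne (0.0609 CPM), the last from 4 counts where the other libraries of the group had 0. Of these 11, 2 lie in labelled flox library 1 and 4 in labelled cKO library 4. Their causes were not tested.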

How the results depend on the processing

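No gene was called by edgeR with RLE size factors, with no filter beyond 1 count, with a mean of at least 5 CPM, with a replicate block, with the spread shared with the con/ko libraries, with a muscle covariate or without the 101 genes that switch between 3 counts or fewer and 100 or more within a group. DESeq2 called 25 (9 higher, 16 lower), 5 of them such switching genes. The smallest adjusted p by edgeR was 0.0608 with the shared spread and 0.539 to 0.681 in the other edgeR settings just named. Without untreated flox 3, where no gene was called, it was 0.102. Leaving out 1 library gave 0 to 1 calls, 0 to 1 higher and 0 to 1 lower: Cipc without labelled flox 1, Pus3 without untreated cKO 2, Zfp715 without untreated cKO 3, Tmem201 without untreated flox 1 and Rps18-ps6 without untreated flox 2. Pus3 stood at 0.588, 12 and 0.416 CPM and Zfp715 at 3.70, 3.45 and 38.1 CPM in untreated cKO, and Tmem201 at 13.7, 29.1 and 31.8 CPM and Rps18-ps6 at 0, 20.5 and 0 CPM in untreated flox, so that the library left out differed from the other two. The count of genes with opposite separation was 42, and 52 to 104 with 1 library fewer, since fewer libraries must then separate; it was 104 without untreated cKO 2, 89 without untreated flox 3, 79 without labelled flox 3, 78 without labelled cKO 1, 70 without untreated flox 1, 69 without labelled flox 1, 67 without labelled flox 4 and 64 without labelled cKO 4. Retnlg, a neutrophil gene, ranged from -0.21 without untreated flox 1 to 5.94 without untreated flox 3. Of the values of named genes under these settings, 1742 kept their direction and side of the threshold, 17 passed the threshold in addition (with DESeq2, and Cipc also without labelled flox 1) and 1 reversed, Retnlg.

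The labels do not say whether replicate numbers pair libraries. Same-numbered libraries of the 2 genotypes had deviations correlated at -0.01 to 0.04 in CFA and -0.01 to 0.07 in untreated ganglia. Differently numbered ones had -0.09 to 0.08 in CFA and -0.09 to 0.06 in untreated ganglia. Correlations over so few pairs cannot decide whether libraries are paired. With a replicate block edgeR called 0 genes, 896 had an unadjusted p under 0.05, Tmem45b had 0.81 and 13 interferon genes were higher.

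Depth was 62.1 M to 72.5 M counts per library, and intervals were widest under 1 CPM, with a median half-width of 1.65.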
